A study of Mus musculus with 23 samples.

Results

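The 9 genes described here encode the enzymes that write and remove DNA methylation and the proteins that direct them. They were chosen by symbol among the 55573 Ensembl genes of the count tables, and all 9 were found: the maintenance methyltransferase Dnmt1 and its recruiter Uhrf1, the de novo methyltransferases Dnmt3a and Dnmt3b with their catalytically inactive partner Dnmt3l, the dioxygenases Tet1, Tet2 and Tet3, and Dppa3 (also called Stella). DNMT1 copies methylation onto the new strand after replication, guided to hemimethylated CpG sites by UHRF1. DNMT3A and DNMT3B methylate sites that carry no mark, and in embryonic stem cells (ESCs) DNMT3L binds them and raises their activity. TET enzymes oxidize 5-methylcytosine as the first step of its removal, and DPPA3 shields methylation in the zygote and, in ESCs and oocytes, displaces UHRF1 from chromatin. Naive ESCs are known for low methylation and primed cells for high methylation, with Dnmt3a, Dnmt3b and Dnmt3l responding to the culture state.

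RNA came from R1 mouse ESCs labelled SET knockout (KO) or wild type (WT), in 2 separately titled sets, and from KH2 ESCs, which accept a single inducible transgene at a chosen locus and here carry HA-tagged SETa behind a doxycycline-inducible promoter. SET is a histone chaperone and an inhibitor of the phosphatase PP2A, and the series asks how it bears on differentiation through p53 and β-catenin. Set 1 held 2 KO1 (1c, 1d), 2 KO2 (1e, 1f) and 2 WT samples (1a, 1b), and untreated set 2 held 2 KO1 (2c, 2d), 2 KO2 (2e, 2f) and 2 WT samples (2a, 2b). Set 2 also held 2 KO samples (2h, 2i) and 1 WT sample (2g) treated with retinoic acid (RA), an inducer of ESC differentiation, for 4 d. KH2 cells were sampled in duplicate with 1 μg/mL doxycycline (Dox) for 24 h and in duplicate without it, the transgene being present in both groups. The growth protocol names mouse embryonic fibroblast feeders, serum and LIF for both lines, and does not say whether they were kept during RA. Both KO samples after RA are titled KO1, but the names of their deposited files carry the codes of both KO lines, and the codes of KO1 and KO2 differ between the sets, so that the clones of the sets cannot be equated. The labels do not say whether replicates were cultured separately, and the p-values below refer to the scatter among the deposited samples, part or all of which may be technical.

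The 23 libraries, made by 3′ tag sequencing, were summed by title code to 19 samples. Totals were 806412 to 1445013 counts in set 1, 2833064 to 10217040 in untreated set 2, 3904924 to 5047363 after RA and 4848478 to 6472695 in KH2 cells. Levels are CPM (counts scaled to a common library total, with TMM factors), and 3 counts correspond to 0.294 to 3.72 CPM, a limit that covers counting error only. Set transcript had 17.3 to 25.9 CPM in the KO samples of set 1, against 977 to 1019.9 CPM in WT. In set 2 the samples labelled KO kept 272 to 562 CPM, against 1191 to 1401 CPM in WT, and KO is used below for samples so labelled. Whether these 3′ tags lie inside the edited part of Set was not analysed here. All 12 ESC markers were detected in every group. Their summed level was 2069.9 to 2404 CPM in KO and 4123 to 4669 CPM in WT of set 1, and 2119 to 2519 CPM in KO and 3258 to 3535 CPM in WT of set 2. The summed level of 20 fibroblast markers was 342 to 521 CPM in KO of set 1, with Lum at 0, and 55.1 to 82.7 CPM in WT, with Postn, Lum and Dcn at 0. In set 2 it was 466 to 691 CPM in KO and 322 to 383 CPM in WT, with Lum at 0 in WT. The 9 primitive endoderm markers, all detected, summed to 1008 to 1374 CPM in KO and 461 to 542 CPM in WT of set 1, and to 907 to 1094 CPM in KO and 529 to 561 CPM in WT of set 2. Their part in the results below was not tested, and in bulk RNA fewer cells of a type and less RNA per cell cannot be told apart.

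Promoter sequence was available from RefSeq (GRCm38.p6) for 8 of the 9 genes, all except Dppa3, in 15 windows, each running from 250 bases before to 50 bases after a transcription start. The windows differed widely in CpG sites, the bases that these enzymes act on, and the median over all 32851 promoter windows was 7. Windows of Tet2, Tet1 and Dnmt3b are shown because these genes passed, like Dppa3, in untreated KO against WT over both sets and within each. The first Dnmt3l window is shown because the gene has the lowest log2 fold change with RA of the 9 genes. CpG sites are in capitals, 5′ to 3′ on the strand of the gene.
Tet2: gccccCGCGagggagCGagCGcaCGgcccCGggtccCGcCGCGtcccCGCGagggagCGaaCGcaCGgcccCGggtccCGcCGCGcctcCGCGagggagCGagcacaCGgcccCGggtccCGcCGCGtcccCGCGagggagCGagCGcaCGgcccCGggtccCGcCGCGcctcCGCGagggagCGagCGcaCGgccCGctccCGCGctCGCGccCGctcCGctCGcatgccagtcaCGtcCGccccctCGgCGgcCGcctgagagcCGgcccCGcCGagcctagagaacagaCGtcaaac
Tet1: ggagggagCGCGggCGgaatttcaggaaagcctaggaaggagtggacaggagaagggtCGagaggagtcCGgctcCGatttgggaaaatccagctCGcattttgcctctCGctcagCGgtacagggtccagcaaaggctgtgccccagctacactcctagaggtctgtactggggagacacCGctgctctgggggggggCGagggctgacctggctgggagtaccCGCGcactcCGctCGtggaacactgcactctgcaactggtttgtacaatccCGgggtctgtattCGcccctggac
Dnmt3b: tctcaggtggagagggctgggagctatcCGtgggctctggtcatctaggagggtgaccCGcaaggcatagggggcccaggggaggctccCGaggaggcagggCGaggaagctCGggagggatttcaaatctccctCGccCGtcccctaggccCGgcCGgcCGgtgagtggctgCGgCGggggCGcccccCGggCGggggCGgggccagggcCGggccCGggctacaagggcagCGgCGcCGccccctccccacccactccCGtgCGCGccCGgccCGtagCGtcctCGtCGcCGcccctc
Dnmt3l: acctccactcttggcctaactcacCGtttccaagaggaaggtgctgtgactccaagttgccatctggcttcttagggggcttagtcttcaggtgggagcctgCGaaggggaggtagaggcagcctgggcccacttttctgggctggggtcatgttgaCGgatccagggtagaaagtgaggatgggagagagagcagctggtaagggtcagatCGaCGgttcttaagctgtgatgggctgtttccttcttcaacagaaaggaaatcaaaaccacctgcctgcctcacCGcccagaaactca
The Tet2 window (chr3:133544341-133544640, minus strand) held 57 CpG sites, and 99.8% of all windows held fewer. Much of it is a repeat, in which the 22-base word caCGgcccCGggtccCGcCGCG occurred 4 times. The Tet1 window (chr10:62887275-62887574, minus strand) held 17 CpG sites, the Dnmt3b window (chr2:153649199-153649498, plus strand) held 30 and the first Dnmt3l window (chr10:78042037-78042336, plus strand) held 6. The other Dnmt3l windows held 4 and 3. The 3 Dnmt3a windows held 46, 47 and 18 CpG sites, the 3 Dnmt1 windows 33, 12 and 2, the Uhrf1 windows 12 and 33, and the Tet3 window 22.

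Motifs were searched as plain letters on both strands of the 15 windows. The E2F word TTTNGCGC, present in 1.38% of all windows, was found in 1 window each of Dnmt1 and Uhrf1. Each of these windows held 33 CpG sites, against a median of 7, and the share over all windows was not matched for CpG content. The KLF word GGGNGTGG was found in 5 of the 15 windows, against 17.6% of all windows: the Dnmt3b window, 2 Dnmt3l windows and both Uhrf1 windows. The STAT word TTCNNNGAA, which reads the same on both strands and occurs in 8.30% of all windows, was found in 1 Dnmt3l window. The ESRRB word TCAAGGTCA (0.423% of all windows), the TCF/LEF word ATCAAAG (3.73%), the retinoic acid response element DR5 (0.00913%), and the p53 half-site (8.36%) were in 0 of the 15. A match is a description of the letters in these windows and not a binding site.

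The 9 genes fell into different orders across the groups, so that no single group was high for all of them. Dnmt3a (ENSMUSG00000020661, chr12:3806007-3914443, GRCm38), Tet1 (ENSMUSG00000047146, chr10:62804570-62908996) and Tet2 (ENSMUSG00000040943, chr3:133463679-133545139) had lower group means in the R1 KO groups than in both R1 WT groups, whereas Dnmt3b (ENSMUSG00000027478, chr2:153649450-153687730) and Dppa3 (ENSMUSG00000046323, chr6:122626410-122630272) were higher in KO of each set than in WT of the same set. RA samples were lowest for Uhrf1 (ENSMUSG00000001228, chr17:56303321-56323486), Dnmt3b, Dnmt3l (ENSMUSG00000000730, chr10:78041947-78063622), Tet1 and Dppa3 and highest for Tet3 (ENSMUSG00000034832, chr6:83362373-83459084), with no overlap with any untreated group. For Dnmt1 (ENSMUSG00000004099, chr9:20907209-20959888) the order ran from 489 ± 48.1 CPM in Dox-treated KH2 cells (SD, n = 2) to 192 ± 21.3 CPM in KO of set 1 (SD, n = 4), and all neighbouring groups in that order overlapped except the first, KH2 with Dox and without Dox. For Tet2 the order broke at a single place, between the lowest KH2 sample at 80.6 CPM and the highest KO sample of set 2 at 57.8 CPM. These intervals span whole genes, and reads were counted over exons. Opposite-strand genes overlap Dnmt3a (Dnmt3aos, 1 count in all libraries), Dnmt3l (Aire, 1087 counts) and Tet2 (Gm42567, 24 counts). The recorded counting command has no strand option, so strand does not assign reads in exon stretches that a gene shares with its antisense partner. Default counting drops such reads. The stretch shared by Dnmt3l and Aire is chr10:78042061-78042127.

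From the highest group mean to the lowest, the order for Uhrf1 was KH2 without Dox, KH2 with Dox, WT of set 1, KO of set 1, WT of set 2, KO of set 2, WT after RA and KO after RA, and neighbours overlapped for KH2 without Dox and KH2 with Dox and for WT of set 1 and KO of set 1. Dnmt3a ran in the order WT of set 1, WT of set 2, KO of set 2, WT after RA, KO of set 1, KO after RA, KH2 with Dox and KH2 without Dox, and neighbours overlapped for WT of set 2 and KO of set 2, for KO of set 2 and WT after RA, for WT after RA and KO of set 1 and for KO of set 1 and KO after RA. For Dnmt3b it was KO of set 2, WT of set 2, KO of set 1, WT of set 1, KH2 without Dox, KH2 with Dox, KO after RA and WT after RA, and neighbours overlapped for WT of set 2 and KO of set 1. The order of Dnmt3l was WT of set 2, KO of set 2, KH2 without Dox, KH2 with Dox, WT of set 1, KO of set 1, KO after RA and WT after RA, and neighbours overlapped for WT of set 2 and KO of set 2 and for WT of set 1 and KO of set 1. Tet1 followed the order KH2 with Dox, WT of set 1, KH2 without Dox, WT of set 2, KO of set 2, KO of set 1, KO after RA and WT after RA, and neighbours overlapped for KH2 with Dox and WT of set 1, for WT of set 1 and KH2 without Dox, for KH2 without Dox and WT of set 2 and for KO of set 2 and KO of set 1. Group means of Tet3 came in the order KO after RA, WT after RA, KO of set 1, WT of set 2, KO of set 2, WT of set 1, KH2 without Dox and KH2 with Dox, and neighbours overlapped for KO of set 1 and WT of set 2, for WT of set 2 and KO of set 2 and for KH2 without Dox and KH2 with Dox. Those of Dppa3 came as KH2 without Dox, KH2 with Dox, KO of set 2, KO of set 1, WT of set 2, WT of set 1, KO after RA and WT after RA, and neighbours overlapped for KO of set 2 and KO of set 1.

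**Figure D1:**
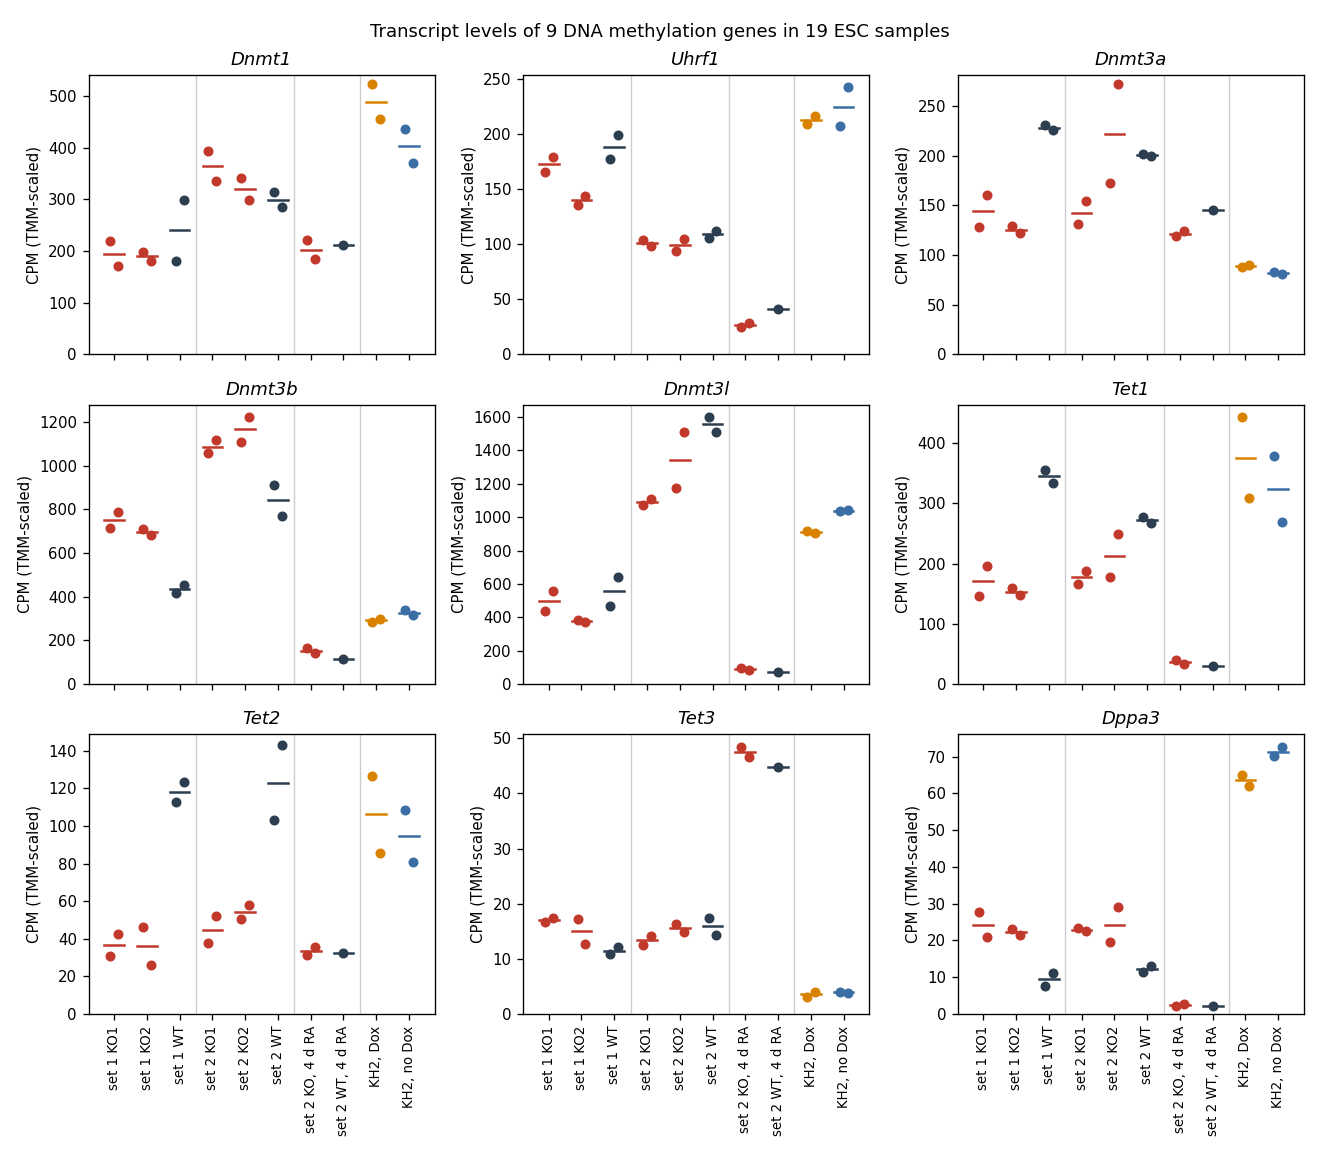
TMM-scaled CPM (vertical axes, each from 0) of the 9 genes in each sample (points) with group means (bars), KO in red, WT in dark blue, KH2 with Dox in orange and KH2 without Dox in blue. Tet1 and Tet2 lie lower and Dppa3 higher in KO than in WT of both sets, and after RA all genes except Tet3 lie below the untreated set 2 samples of their genotype.

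Whether loss of SET goes with a change in these genes was tested by comparing KO with WT, over both sets with set as a term and within each set. Over both sets, 5 of the 9 genes differed at an adjusted p under 0.05 in edgeR's quasi-likelihood test, against 18.7% of the 11950 genes tested. Tet1, Tet2 and Dnmt3l were lower and Dnmt3b and Dppa3 higher in KO, and Dnmt1, Uhrf1, Dnmt3a and Tet3 did not pass. Within set 1, 5 of 9 passed (Dnmt3a, Dnmt3b, Tet1, Tet2 and Dppa3), against 12.3% of 9764 genes. Within set 2, 4 of 9 passed (Dnmt3b, Tet1, Tet2 and Dppa3), against 9.19% of 12681 genes. The difference between the sets passed for 0 of 9, against 0.828% of 11950 genes in the same test. At an unadjusted p under 0.05 there were 2, Tet1 and Dnmt1, and the DESeq2 Wald test called 0. The sets' effects were not shown to differ for any of the 9 genes.

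Among the erasers, Tet2, a TET enzyme without the DNA-binding CXXC domain that Tet1 and Tet3 carry, had the lowest log2 fold change. In set 1 it had 31.0, 42.3, 46.1 and 25.9 CPM in KO, against 113 and 123 CPM in WT. In set 2 it had 37.6, 52.0, 50.6 and 57.8 CPM in KO, against 103 and 143 CPM in WT. All 8 KO samples lay below all 4 WT samples, with both KO lines of each set alike in this. KO was at 0.308 of the WT mean in set 1 and 0.402 in set 2, and over both sets the log2 fold change was -1.48 (SE 0.14, adjusted p = 6.76e-08). The Tet2 call held under all 18 alternative settings over both sets, with log2 fold changes between -1.62 and -1.36.

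Tet1, the TET enzyme best known from ESCs, had 146, 196, 159 and 148 CPM in KO of set 1, against 356 and 334 CPM in WT. In set 2 it had 167, 188, 177 and 249 CPM in KO, against 277 and 267 CPM in WT. KO and WT did not overlap in either set, although 2f was close to the lower WT sample. The log2 fold change was -1.08 (SE 0.16, adjusted p = 0.000192) in set 1, -0.47 (SE 0.13, adjusted p = 0.0308) in set 2 and -0.78 (SE 0.12, adjusted p = 8.40e-05) over both. The set 2 call was lost in 8 of 15 alternatives, among them the fits without 2a, 2b, 2c, 2d or 2e. Without 2a or 2b, only the other WT sample is left. The remaining losses were with each library as its own sample, with and without replicate number as a term, and within library group A, described below. Tet3, the TET of the oocyte and zygote, had 16.6, 17.3, 17.3 and 12.6 CPM in KO and 10.9 and 12.1 CPM in WT of set 1, where the groups did not overlap. In set 2 the Tet3 groups overlapped, at 12.5, 14.1, 16.4 and 14.9 CPM in KO and 17.4 and 14.4 CPM in WT, and Tet3 passed in neither set (log2 fold change 0.069, SE 0.18, adjusted p = 0.837 over both).

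Dnmt3b, the de novo enzyme most active in the early embryo, ran the other way. It had 716, 786, 712 and 685 CPM in KO of set 1, against 415 and 454 CPM in WT. Set 2 KO samples had 1056, 1119, 1111 and 1225 CPM, against 910.2 and 772 CPM in WT. KO samples were above WT samples in both sets. Within set 2 that order held in library group A and was the opposite in group B, both described below. The log2 fold change was 0.74 (SE 0.14, adjusted p = 0.00190) in set 1, 0.43 (SE 0.11, adjusted p = 0.0149) in set 2 and 0.57 (SE 0.10, adjusted p = 0.000156) over both. The set 2 call was lost without 2b (0.30), where only the other WT sample is left, and without 2e (0.44, adjusted p = 0.0532). It was also lost with each library as its own sample, with and without replicate number as a term. With library group as a term in place of replicate number it was lost too (0.37, adjusted p = 0.270).

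Dnmt3a, the second de novo enzyme, passed in set 1 and not in set 2, and the difference between the sets did not pass (log2 fold change 0.61, SE 0.30, adjusted p = 0.480). Set 1 KO samples had 128, 161, 129 and 122 CPM, against 231 and 226 CPM in WT, and the groups did not overlap (log2 fold change -0.75, SE 0.16, adjusted p = 0.00496). That call just failed without 1a (-0.72, adjusted p = 0.0509). Set 2 KO samples had 131, 154, 173 and 272 CPM, against 202 and 199.6 CPM in WT. There 3 KO samples lay below both WT samples and 2f above them (log2 fold change -0.13, SE 0.26, adjusted p = 0.817). Without 2f the set 2 log2 fold change was -0.38 (adjusted p = 0.00732), and the value over both sets was -0.57 (adjusted p = 0.000451), against -0.43 (SE 0.17, adjusted p = 0.0806) with it.

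Dnmt3l, the inactive partner of the de novo enzymes, had 438, 559, 384 and 372 CPM in KO of set 1, against 466 and 643 CPM in WT, and the groups overlapped. In set 2 it had 1073, 1107, 1173 and 1513 CPM in KO, against 1598 and 1513 CPM in WT, and again 2f alone reached the WT range. The lower level in KO passed over both sets (log2 fold change -0.35, SE 0.11, adjusted p = 0.0325) and in neither set alone (adjusted p = 0.243 in set 1 and 0.0855 in set 2). Leaving out any 1 of 1b, 1e, 1f, 2a, 2b, 2c, 2d or 2e ended the call over both sets, with adjusted p between 0.0604 and 0.185. Without 2f, Dnmt3l passed in set 2 (-0.47, adjusted p = 8.32e-05).

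Dppa3 was higher in KO. It had 27.7, 20.8, 23.03 and 21.5 CPM in KO of set 1, against 7.52 and 11.2 CPM in WT. Set 2 KO samples had 23.2, 22.5, 19.5 and 29.1 CPM, against 11.3 and 13.0 CPM in WT. All KO samples lay above all WT samples of both sets, with the mean of KO at 2.48 times that of WT in set 1 and 1.94 times in set 2. The log2 fold change was 1.30 (SE 0.33, adjusted p = 0.0168) in set 1, 0.92 (SE 0.21, adjusted p = 0.00946) in set 2 and 1.02 (SE 0.18, adjusted p = 0.000291) over both. The single-set calls were lost without 1a (1.05, adjusted p = 0.197), without 2a (0.85, adjusted p = 0.0894) and without 2b (1.03, adjusted p = 0.128), as was that of set 1 in the DESeq2 Wald test (adjusted p = 0.0606), while the call over both sets held under all 18 alternatives.

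The maintenance pair did not pass over both sets or within either set. Dnmt1 had 219, 171, 198 and 181 CPM in KO of set 1, against 181 and 299 CPM in WT, where 1b lay above all other set 1 samples. In set 2 Dnmt1 had 393, 335, 342 and 298 CPM in KO, against 314 and 285 CPM in WT, and the groups overlapped in both sets (log2 fold change -0.054, SE 0.13, adjusted p = 0.814 over both). Uhrf1 had 166, 179.5, 136 and 144 CPM in KO of set 1, against 177 and 199 CPM in WT, again with overlap. In set 2 it had 104, 98.5, 93.9 and 104 CPM in KO, against 106 and 112 CPM in WT, which did not overlap but lay close together (log2 fold change -0.20, SE 0.10, adjusted p = 0.175 over both).

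**Figure D2:**
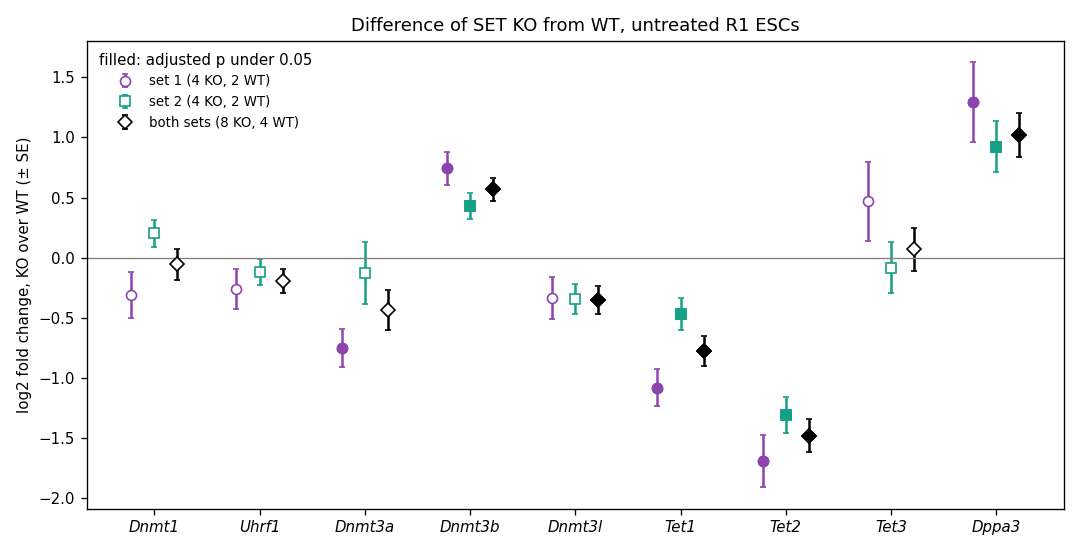
Log2 fold change of KO over WT (vertical axis, points, with SE as bars) for the 9 genes in set 1, set 2 and both sets, with filled symbols for an adjusted p under 0.05. Tet2, Tet1, Dnmt3b and Dppa3 pass in all 3 fits, Dnmt3a passes in set 1 and Dnmt3l over both sets.

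The 10 untreated set 2 libraries did not form a single group. On the first principal component of their deviations from group means, which took 34.7% of the variance, they separated by a gap into 5 libraries called A here and 5 called B, each with 3 KO and 2 WT libraries. Where a title code had 2 libraries (2a, 2b, 2d and 2e), the lower-numbered one was in A and the other in B. The only library of 2f was in A and that of 2c in B. The labels give no date, run or preparation for A and B, which were defined from the data. Sample 2f thus drew 100% of its counts from A, 2b 77.7%, 2a 45.5%, 2d 38.7%, 2e 25.7% and 2c 0%. The difference of KO from WT was tested within A, within B and as the difference between A and B, an analysis added after seeing the data, in which libraries of 1 code in A and B are not independent of each other. Because A and B were defined from the same values that were then compared, the p-values of that difference are not those of an independent split and are given as descriptions.

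The comparison of KO with WT looked different in A and B for the de novo genes. Dnmt3b had 1162 to 1295 CPM in KO libraries of A, against 638 to 656 CPM in WT. In B it had 991 to 1074 CPM in KO, against 1107 to 1199 CPM in WT, so that KO lay above WT in A and below WT in B. Both WT codes had the lower Dnmt3b level in their A library. The difference in log2 fold change, B minus A, was -1.09 (adjusted p = 2.88e-05) for Dnmt3b, -1.03 (adjusted p = 0.00149) for Dnmt3a and -0.64 (adjusted p = 0.0273) for Dnmt3l, the 3 of the 9 genes with an adjusted p under 0.05, against 0.567% of the 11103 genes tested. Dnmt3a had 215 to 269.9 CPM in KO of A, against 191 to 198 CPM in WT, and 114 to 138 CPM in KO of B, against 192 to 208 CPM in WT. Its WT level was thus alike in A and B, and its KO level higher in A. Dnmt3l had 1358 to 1502 CPM in KO of A, against 1459 to 1535 CPM in WT, and 933 to 1067 CPM in KO of B, against 1608 to 1624 CPM in WT. KO and WT overlapped for Dnmt3l in A and were far apart in B.

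Within A, 2 of the 9 genes passed (Dnmt3b and Tet2), against 4.06% of 10689 genes. Within B, 6 of 9 passed (Uhrf1, Dnmt3a, Dnmt3l, Tet1, Tet2 and Dppa3), against 13.7% of 11576 genes. Tet2 passed in both, with a log2 fold change of -1.38 (adjusted p = 0.000109) in A and -0.94 (adjusted p = 7.91e-07) in B. Its level was 45.0 to 59.4 CPM in KO of A, against 130.0 to 154 CPM in WT, and 37.4 to 51.6 CPM in KO of B, against 79.3 to 95.1 CPM in WT. Tet1 and Dppa3 kept their direction in A and B without overlap of KO and WT. Tet1 had a log2 fold change of -0.26 (adjusted p = 0.289) in A and -0.58 (adjusted p = 5.99e-06) in B, and Dppa3 one of 0.81 (adjusted p = 0.0946) in A and 1.13 (adjusted p = 0.00366) in B. Dnmt3b had 0.93 (adjusted p = 0.000395) in A and -0.15 (adjusted p = 0.214) in B. Dnmt3a had 0.37 (adjusted p = 0.158) in A and -0.65 (adjusted p = 2.16e-06) in B. The value of B was the nearer to that of set 1 (-0.75) for Dnmt3a. For Dnmt3b the value of A was the nearer to that of set 1 (0.74).

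**Figure D3:**
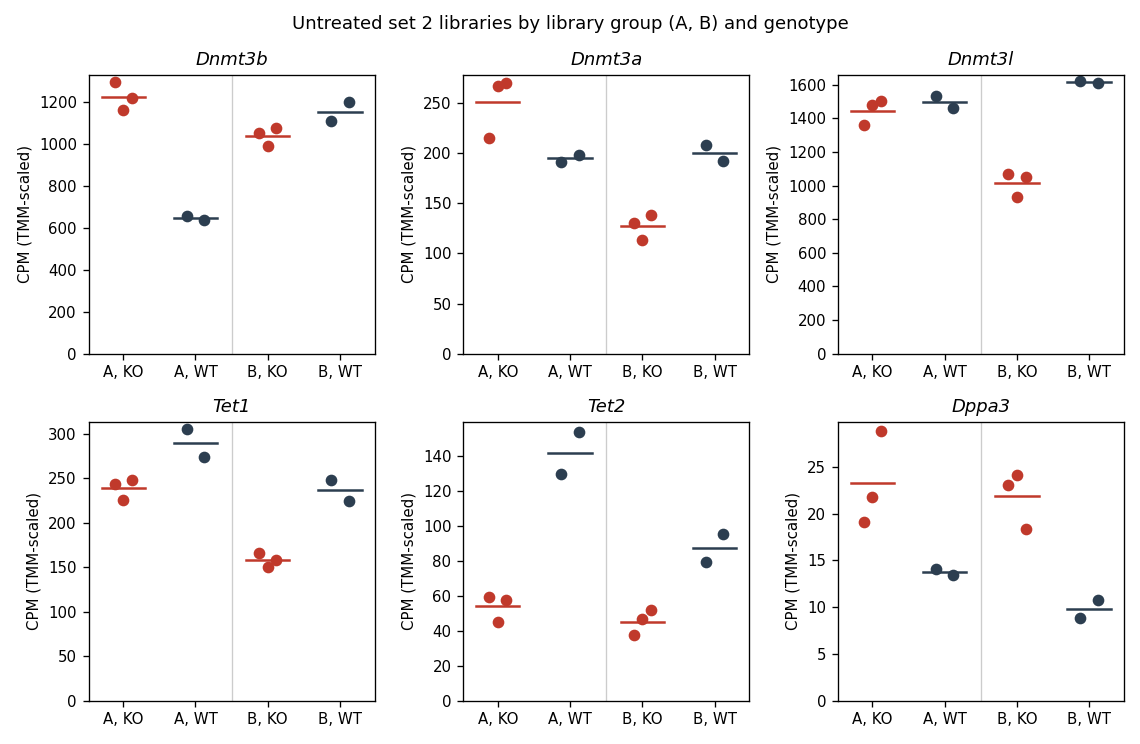
TMM-scaled CPM (vertical axes, each from 0) of 6 genes in the untreated set 2 libraries (points, with means as bars), split into library groups A and B and, within each, KO in red and WT in dark blue. KO lies above WT in A and below it in B for Dnmt3a and Dnmt3b, and on the same side of WT in A and B for Tet1, Tet2 and Dppa3.

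The response to 4 d of RA was measured in each genotype against untreated set 2 samples. All 9 genes passed in KO, against 55.1% of the 14659 genes tested, and all 9 passed in WT, against 47.3%. Of these, 8 fell and Tet3 rose in both genotypes. The WT value rests on 1 RA library, whose spread was taken from the other groups, and the WT and KO values come from 1 fit. After RA the 20 fibroblast markers summed to 5384 to 6216 CPM in KO and 5689 CPM in WT (with Lum at 0), and the 12 ESC markers to 417 to 426 CPM in KO and 341 CPM in WT. The 12 neural and RA-response markers summed to 764 to 874 CPM in KO after RA (Neurog2 at 0) and 743 CPM in WT, and the 9 primitive endoderm markers to 1941 to 2064 CPM in KO and 1045 CPM in WT. The part of these cells in the values was not tested.

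Dnmt3l fell furthest on the log2 scale. It had 94.7 and 82.2 CPM in KO after RA, against 1073 to 1513 CPM in untreated KO. In WT it had 71.0 CPM after RA, against 1513 to 1598 CPM untreated. The log2 fold change was -3.81 (SE 0.13, adjusted p = 2.29e-18) in KO and -4.47 (SE 0.20, adjusted p = 5.36e-16) in WT. Dnmt3b had 166 and 141 CPM in KO after RA, against 1056 to 1225 CPM untreated, and 114 CPM in WT after RA, against 772 to 910.2 CPM untreated. Its log2 fold change was -2.91 (SE 0.12, adjusted p = 6.28e-17) in KO and -2.90 (SE 0.18, adjusted p = 2.22e-13) in WT, nearly the same in both.

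Dnmt3a had smaller log2 fold changes with RA than Dnmt3b and Dnmt3l. It had 119 and 124 CPM in KO after RA, against 131 to 272 CPM untreated (log2 fold change -0.59, SE 0.14, adjusted p = 0.00118). The KO samples after RA lay within the range of the untreated KO libraries of group B (114 to 138 CPM) and well below those of group A (215 to 269.9 CPM), which were scaled separately, and the RA libraries were not assigned to A or B. With KO1 alone as the untreated KO group the call was lost (-0.28, adjusted p = 0.161). In WT Dnmt3a had 145 CPM after RA, against 202 and 199.6 CPM untreated (log2 fold change -0.49, SE 0.20, adjusted p = 0.0467). That call sat at the threshold and was lost without 2a, 2b, 2c, 2d, 2h or 2i, with adjusted p between 0.0524 and 0.112, and also with DESeq2 size factors (adjusted p = 0.0573), in the DESeq2 Wald test (0.101) and with each library as its own sample (0.295).

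Of the erasers, Tet1 fell and Tet3 rose. Tet1 had 39.7 and 33.9 CPM in KO samples and 29.6 CPM in the WT sample after RA, with log2 fold changes of -2.43 (SE 0.15, adjusted p = 1.58e-13) in KO and -3.21 (SE 0.22, adjusted p = 3.95e-12) in WT. Tet3 had 48.5 and 46.6 CPM in KO samples and 44.8 CPM in the WT sample after RA, against 12.5 to 16.4 CPM in untreated KO and 14.4 to 17.4 CPM in untreated WT. Its log2 fold change was 1.67 (SE 0.17, adjusted p = 2.16e-09) in KO and 1.51 (SE 0.23, adjusted p = 5.58e-06) in WT, the only rises among the 9 genes. Dppa3 had 2.19 and 2.74 CPM in KO samples and 2.09 CPM in the WT sample after RA, and fell by 3.26 (SE 0.30, adjusted p = 4.31e-10) on the log2 scale in KO and 2.56 (SE 0.48, adjusted p = 7.85e-05) in WT.

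The maintenance pair fell too. Uhrf1 had 24.9 and 28.5 CPM in KO after RA, against 93.9 to 104 CPM untreated (log2 fold change -1.94, SE 0.14, adjusted p = 2.14e-12). In WT it had 41.6 CPM after RA, against 106 and 112 CPM untreated (log2 fold change -1.41, SE 0.18, adjusted p = 4.32e-07). Dnmt1 had 221 and 184 CPM in KO after RA, against 298 to 393 CPM untreated (log2 fold change -0.79, SE 0.11, adjusted p = 1.11e-06). In WT it had 211 CPM after RA, against 314 and 285 CPM untreated (log2 fold change -0.52, SE 0.16, adjusted p = 0.00812), a call that was lost without 2a (-0.44, adjusted p = 0.0602) and with each library as its own sample (-0.62, adjusted p = 0.0810). The RA samples lay below the untreated samples of their genotype for both genes.

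After RA, 0 of the 9 genes differed between KO and WT in edgeR's quasi-likelihood test, against 0.396% of 14659 genes called. At an unadjusted p under 0.05 there were 2, Uhrf1 (log2 fold change -0.66, SE 0.19, adjusted p = 0.234) and Dnmt3b (log2 fold change 0.41, SE 0.16, adjusted p = 0.592), and the DESeq2 Wald test also called 0. Tet2 in KO and WT overlapped after RA, with 31.1 and 35.6 CPM in KO samples and 32.5 CPM in the WT sample, where untreated KO and WT were apart. Its log2 fold change with RA was -0.61 (SE 0.16, adjusted p = 0.00220) in KO and -1.96 (SE 0.23, adjusted p = 8.19e-08) in WT. The call in KO was lost without 2h (-0.51, adjusted p = 0.0562).

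The RA response itself differed between KO and WT for 1 of the 9 genes, Tet2, against 1.09% of 14659 genes. The difference in log2 fold change, KO minus WT, was 1.35 (SE 0.28, adjusted p = 0.0140). It was lost without 2b (1.10, adjusted p = 0.160), without 2h (1.44, adjusted p = 0.0621) and without 2i (1.25, adjusted p = 0.0902), and with each library as its own sample (1.26, adjusted p = 0.456). Dnmt3l (0.66, SE 0.21, adjusted p = 0.136) and Tet1 (0.78, SE 0.25, adjusted p = 0.163) pointed the same way without passing. Without 2f both passed, at 0.77 (adjusted p = 0.0121) for Dnmt3l and 0.92 (adjusted p = 0.0128) for Tet1. The untreated samples enter this difference and the comparison of untreated KO with WT alike, so the values of these comparisons are not independent.

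**Figure D4:**
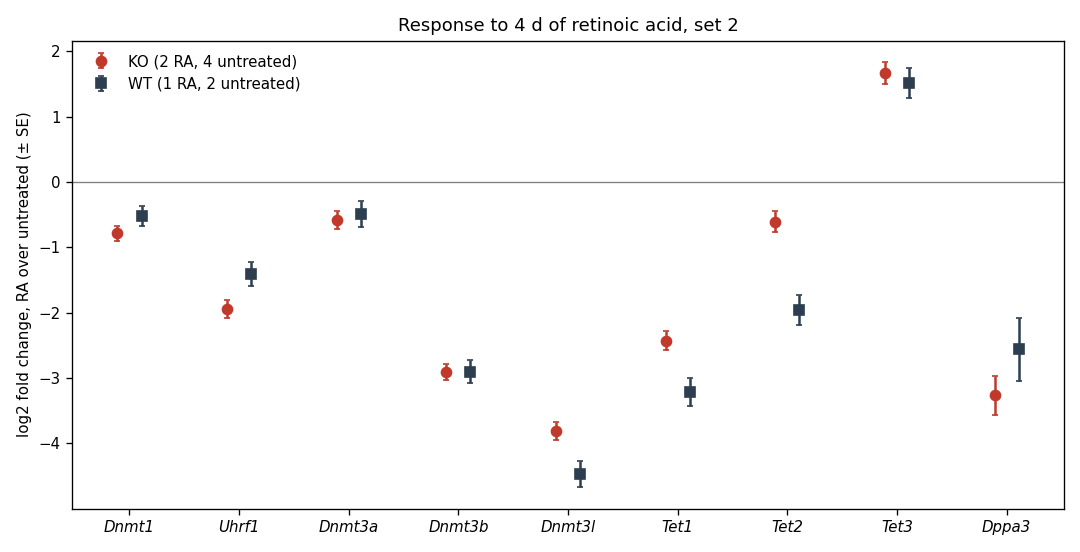
Log2 fold change with 4 d of RA over untreated set 2 samples (vertical axis, points, with SE as bars) for the 9 genes in KO (red) and WT (dark blue). Tet3 is above 0 and the other 8 genes are below 0 in both genotypes, and the gap between genotypes is widest for Tet2.

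Dox was compared with no Dox in KH2 cells carrying the SETa transgene. No cells without the transgene got Dox, so effects of Dox and of induced SETa cannot be told apart. In edgeR's test 0 of the 9 genes passed with Dox, against 1.8% of 12723 genes called. The DESeq2 Wald test called 0 of the 8 genes to which it gave an adjusted p, all but Tet3. At an unadjusted p under 0.05 there was 1, Dnmt1, with 523 and 455 CPM with Dox, against 437 and 370.1 CPM without (log2 fold change 0.28, SE 0.11, adjusted p = 0.215). Set tags, which can come from the endogenous gene and, if it keeps their sequence, from the transgene, were at 1263 and 1119 CPM with Dox, against 1016 and 955 CPM without (log2 fold change 0.28, SE 0.10, adjusted p = 0.175). Tet1 had 443 and 308 CPM with Dox, against 379 and 268 CPM without, the replicates of each group differing more than the groups (log2 fold change 0.22, SE 0.16, adjusted p = 0.578). Without the second Dox sample Tet1 passed, at 0.45 (adjusted p = 0.0395). Dnmt3l had 919.9 and 903 CPM with Dox, against 1035 and 1042 CPM without (log2 fold change -0.19, SE 0.10, adjusted p = 0.390), and Dppa3 65.1 and 62.1 CPM against 70.1 and 72.5 CPM without Dox. The groups did not overlap for either gene, and neither passed. Uhrf1 had 209 and 216 CPM with Dox, against 207 and 243 CPM without, and Tet2 127 and 85.9 CPM with Dox, against 109 and 80.6 CPM without, both with overlap. Dnmt3b had 286 and 298 CPM with Dox, against 338 and 317 CPM without. Dnmt3a had 88.3 and 89.7 CPM with Dox, against 82.8 and 80.6 CPM without. Neither had overlap, and the Dnmt1 samples did not overlap either. With so few samples per group, lack of overlap alone is weak, and the share of all genes without overlap was not computed. The fibroblast markers summed to 581 to 713 CPM with Dox (Lum at 0) and 987 to 1037 CPM without, and the ESC markers to 5409 to 5574 CPM with Dox and 4611 to 4751 CPM without. The part of these cells in the values was not tested.

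The WT samples of both sets and the KH2 cells without Dox had unlike levels of several of the 9 genes, and line, set and preparation cannot be told apart there. Dnmt3l was 2.80 times as high in R1 WT of set 2 (1555 ± 60.6 CPM, SD, n = 2) as in R1 WT of set 1 (555 ± 125 CPM, SD, n = 2). Dnmt3b was 1.93 times as high in set 2 as in set 1, and Uhrf1 was at 0.579 of its set 1 level. Tet2 was nearest to 1, at 1.04. KH2 cells without Dox had 5.86 times the Dppa3 of R1 WT in set 2, with 70.1 and 72.5 CPM against 11.3 and 13.0 CPM, and 2.07 times the Uhrf1. Their Tet3 was at 0.244, Dnmt3b at 0.389 and Dnmt3a at 0.407 of the R1 level. These ratios are descriptions, with no test.

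Of 144 other genes of the pathway, in 10 lists, 133 were tested over both sets, of which 7 were higher and 24 lower in KO, 23.3% against 18.7% of all genes. Within set 1, 1 of 123 was higher and 12 lower, 10.6% against 12.3% of all genes, and within set 2, 5 of 136 were higher and 13 lower, 13.2% against 9.19%. The list of Polycomb repressive complex 2 and H3K36 methylation genes had a median log2 fold change of -0.30 over both sets, against -0.016 over all genes. Of its 10 genes, 4 were lower in set 1 and 2 in set 2. Over both sets 4 were lower and 0 higher. Among them were the catalytic subunit Ezh2 (log2 fold change -0.64, adjusted p = 3.57e-05 in edgeR's test, and likewise for the genes below), the core subunit Eed (-0.48, adjusted p = 0.000959) and Mtf2 (-0.53, adjusted p = 0.000447), which recruits the complex to CpG islands. Ezh2 had 185 to 236 CPM in KO, against 365 to 407 CPM in WT of set 1, and 155 to 169 CPM in KO, against 218 to 231 CPM in WT of set 2, with no overlap. Of 12 partners of maintenance methylation 3 were lower over both sets, while set 1 alone had 0 and set 2 alone had 1. The 3 were the H3K9 methyltransferase gene Ehmt2 (-0.62, adjusted p = 0.000575), the remodeller gene Hells (-0.29, adjusted p = 0.0309) and its activator Cdca7 (-0.37, adjusted p = 0.0331). Of 10 genes that protect imprints and silence retroelements 3 were lower over both sets, with 1 of 9 in set 1 and 2 of 10 in set 2. They were Resf1 (-0.61, adjusted p = 0.000647), the imprint-binding zinc finger gene Zfp57 (-1.004, adjusted p = 0.00248) and Morc3 (-0.41, adjusted p = 0.0159). Among 20 genes of DNA replication 4 were lower and 0 higher, a share near the 18.7% of all genes, and 1 was lower within each set. The list had a median of -0.24. Among the 4 were the polymerase gene Pola1 (-0.42, adjusted p = 0.00297), Ccne1 (-0.38, adjusted p = 0.00993) and the helicase gene Mcm6 (-0.31, adjusted p = 0.0207).

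The counts in the remaining lists, all over both sets, stand beside 18.7% called among all genes. Of 11 partners of the TET enzymes and CXXC proteins, 2 were lower in KO, the pluripotency factor Nanog (-0.57, adjusted p = 0.00301), which binds TET proteins, and Prdm14 (-1.18, adjusted p = 0.0141), which represses de novo methyltransferases in naive cells. Of 11 genes of base excision and demethylation, the stress genes Gadd45g (0.72, adjusted p = 0.0117) and Gadd45b (0.50, adjusted p = 0.0450) were higher and Gadd45a (-0.44, adjusted p = 0.0396) lower. Of 12 genes of the metabolism of 2-oxoglutarate, the TET cosubstrate, 2 were higher, Glud1 (0.55, adjusted p = 0.000149) and Idh1 (0.35, adjusted p = 0.0415), and 3 lower, Got1 (-0.55, adjusted p = 0.000101), Psat1 (-0.30, adjusted p = 0.0481) and Idh3b (-0.31, adjusted p = 0.0497). Of 22 germline genes whose promoters are methylated in somatic cells, 3 were higher, Taf7l (0.63, adjusted p = 0.0143), Tex19.2 (1.27, adjusted p = 0.0100) and Tex101 (1.92, adjusted p = 0.00775), and 4 lower, among them Rpl10l (-1.16, adjusted p = 5.47e-07), a retrocopy that can share reads with Rpl10, Tex14 (-1.52, adjusted p = 7.18e-06) and Dazl (-1.01, adjusted p = 0.000269). In set 2 Tex101 had 3.53 to 6.81 CPM in KO, against 0.969 to 1.46 CPM in WT, and Tex19.2 had 7.05 to 13.3 CPM in KO, against 3.55 to 3.65 CPM in WT, while in set 1 both were near the counting limit. The median of the germline list was 0.12 over both sets, but -0.25 in set 1, where 0 of 15 were higher and 4 lower, and 0.27 in set 2, where 3 of 22 were higher and 4 lower. None of 10 methylation readers and none of 15 genes of methyl donor metabolism passed.

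With RA, 139 of the 144 genes were tested. In KO 28 rose and 78 fell, 76.3% against 55.1% of all genes, and in WT 22 rose and 72 fell, 67.6% against 47.3%. The replication list fell almost whole, 19 of 20 genes in each genotype, among them Mcm3 (-1.65 in KO and -1.71 in WT, log2) and Ccne1 (-1.51 in KO and -2.04 in WT), in the same samples in which Uhrf1 and Dnmt1 fell. The list's median was -1.17 in KO and -1.41 in WT, against -0.0088 in KO and -0.026 in WT over all genes. Maintenance partners followed, with 8 of 12 lower in each genotype, among them Hells (-1.86 in KO and -2.12 in WT). Methylation readers ran the other way, 7 of the 11 being higher in KO with 1 lower, and 6 in WT with 0 lower, with medians of 0.86 in KO and 0.58 in WT. Zbtb38 had 89.5 to 109 CPM in KO after RA, against 40.5 to 46.4 CPM untreated, and 107 CPM in WT after RA, against 36.2 to 38.9 CPM untreated. Mbd1 had 53.2 to 54.8 CPM in KO after RA, against 17.5 to 22.5 CPM untreated. Polycomb complex and H3K36 genes had 7 of 10 lower and 2 higher in each genotype, with Jarid2 lowest (-1.52 in KO and -2.10 in WT) and the H3K36 methyltransferase genes Nsd2 and Nsd3 higher. Of 24 germline genes, 8 were higher and 11 lower in KO, and 2 higher and 10 lower in WT. The median of that list was -0.60 in KO and -1.14 in WT. Among its genes, Rpl10l and Tex19.1 were lower and Ddx4 higher in both genotypes (1.83 in KO and 1.40 in WT). After RA, KO and WT differed for 1 of the 139, 0.719% against 0.396% of all genes, the germline gene Taf7l (1.48, adjusted p = 0.0387), which was higher in KO. The RA response differed for 2, 1.44% against 1.09% of all genes, Stra8 (1.66, adjusted p = 0.00461) and Idh1 (-0.81, adjusted p = 0.0232), and with Dox 3 of 131 passed, 2.29% against 1.8% of all genes, Tex19.1 (0.57, adjusted p = 0.00461), the uracil glycosylase gene Ung (0.46, adjusted p = 0.0224) and Idh3g (-0.55, adjusted p = 0.0402).

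Across all 19 samples, centred by experiment, the genes whose log2 levels followed each member most closely were searched among the 8712 genes averaging 10 CPM or more. Tet1 was nearest to Pola1 (r = 0.99) and Sox2 (0.985), Dnmt3l to Hsf2bp (0.99) and Phc1 (0.99), Dnmt3b to Tdrd12 (0.985) and Kifc2 (0.985), and Uhrf1 to Gtsf1l (0.97) and Cenpm (0.97). Dppa3 was nearest to Apela (0.98) and Lefty2 (0.98), Tet3 to Dcbld2 (0.97) and Pdlim7 (0.97), and Tet2 to Mtss1 (0.97) and Trip12 (0.95). Dnmt1 (Mir17hg at 0.94, Naa40 at 0.93) and Dnmt3a (Acsl1 at 0.91, Tns3 at 0.90) had the loosest matches. Among the members, Dnmt3b and Dppa3 (r = 0.96) and Uhrf1 and Dnmt3l (0.96) lay closest, and Tet2 and Dppa3 had the r nearest to 0 (0.065). These correlations are over n = 19 samples that share groups, untreated samples and scaling, and they are descriptions. The samples include those after RA, in which all members except Tet3 fell. Centring by experiment does not remove that difference, and its part in these correlations was not tested. Without centring by experiment, Pola1 and Mtss1 remained the first matches of Tet1 and Tet2.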

How the data were processed

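Polyadenylated RNA was measured with QuantSeq 3′ tags in 23 libraries, per the labels' protocols. The deposited values are raw counts per gene, made by the authors with featureCounts 1.6.0 on Ensembl release 97 of GRCm38, per the file headers, while the submitters' processing notes name STAR 2.5.4b and Subread 2.0.0. Read trimming and strandedness are not given in the sources used here. Default counting drops reads that map to several places or overlap several genes. Libraries with the same title code were summed, giving 19 samples of 806412 to 10217040 counts. Tests were edgeR 4.0.16 quasi-likelihood tests run in R 4.3.3, after filterByExpr (minimum count 10, total 15) and TMM scaling, with robust dispersions and Benjamini-Hochberg adjustment over all genes at 0.05, with SE as the fold change over the root of F. CPM of samples and of libraries were scaled separately. The untreated comparison used set as a term, RA used group means of all set 2 samples with the mean of KO1 and KO2 as untreated KO, and KH2 was fitted alone.

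Members and lists were chosen with earlier results of these data known. The text names all 9 members, Set, up to 3 called genes per direction of each list by adjusted p, and the 2 genes most like each member by Pearson r of log2(CPM + 1). The fits were tested on simulated data. Alternatives were DESeq2 1.42.0 size factors and its Wald test, no low-count filter, each library as a sample, the replicate block, sums per line, KO1 alone as untreated KO, library groups A and B, and each sample left out. Promoter windows came from RefSeq. Tables and figures used Python 3.11.15, pandas 2.3.3, numpy 2.4.6 and matplotlib 3.10.9.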

Additional observations from a re-analysis of the deposited data

Results flagged for a closer look

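In set 1 KO, Tet3 in sample 1f stood apart from the other 3 samples of its group of 4, at 12.6 CPM, against 16.6, 17.3 and 17.3 CPM in the others. Chance flags about 1 in 20 groups, and this was 1 of 18 groups of members tested in that way. The response of Tet2 to RA differed between KO and WT by 1.35 on the log2 scale, KO minus WT (adjusted p = 0.0140). Between the library groups A and B of untreated set 2, the difference of KO from WT was not the same for the 3 de novo genes, in a comparison that is descriptive because A and B were defined from the same values. B minus A was -1.03 for Dnmt3a, -1.09 for Dnmt3b and -0.64 for Dnmt3l on the log2 scale. In group A 3 of 3 KO libraries had more Dnmt3b than both WT libraries, and in group B 3 of 3 had less.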

How the results depend on the processing

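Leaving out 1 sample at a time, the number of the 9 members called ran from 4 to 6 over both sets (5 with all samples), 3 to 5 in set 1 (5), 1 to 6 in set 2 (4), 0 to 0 for the difference between sets (0), 8 to 9 for RA in KO (9), 7 to 9 for RA in WT (9), 0 to 0 for KO against WT after RA (0), 0 to 3 for the RA difference between genotypes (1) and 0 to 1 for Dox (0). In set 2, 2 members were called with each library as its own sample, 2 with the replicate block added to that, and 2 within library group A. For the RA difference 2 were called without the low-count filter and 0 with each library as its own sample. RA in WT without 2g could not be fitted. Over all genes, calls without single samples ran from 1593 to 2460 over both sets (2230 with all samples), 570 to 1388 in set 1 (1200), 195 to 2335 in set 2 (1165), 22 to 127 for the difference between sets (99), 15 to 98 after RA (58), 27 to 388 for the RA difference (160) and 6 to 234 for Dox (229). Counts beyond 1.5 times were 1445 over both sets with sums per line. In set 2 they were 759 by library, 447 with the replicate block, 2194 with sums per line and 434 within A. For the difference between sets they were 171 unfiltered and 42 with the replicate block, after RA 94 unfiltered and 8 by library, for the RA difference 98 with the Wald test, 284 unfiltered and 2 by library, and for Dox 127 with the Wald test and 724 with the replicate block.

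Tet2, Tet1, Dnmt3b and Dppa3 over both sets kept their call in all 18 alternatives, and Dnmt3l, the other member called there, lost its call in 10. None of the 18 had library group A or B as a term, a setting run for set 2 alone, where it ended the Dnmt3b call. Signs changed mostly in values that did not pass. Dnmt1 over both sets was 0.036 with the replicate block, and -0.15 to 0.16 (both sets) and -0.62 to 0.10 (set 1) without single samples, and -0.13 within group B. Within A, Dnmt3a in set 2 was 0.37, and within B Dnmt3b was -0.15, the 1 reversal of a called value. The difference between sets for Dnmt3l was 0.0017 by library, 0.0062 with the replicate block and -0.27 to 0.19 without single samples. The RA difference for Dnmt3b was 0.011 unfiltered, 0.088 by library, 0.037 with KO1 alone and -0.14 to 0.12 without single samples, and for Dnmt3a 0.21 and -0.26 to 0.083 in the last 2 settings. Without single samples, ranges that crossed 0 were -0.27 to 0.036 for Tet3 in set 2, -0.22 to 0.053 for Dnmt1 and -0.074 to 0.11 for Tet2 after RA, and, with Dox, -0.20 to 0.038 for Uhrf1, -0.070 to 0.48 for Tet1, -0.14 to 0.42 for Tet2 and -0.34 to 0.053 for Tet3. Causes other than fewer samples or genes were not tested. CPM without TMM moved 19 of 63 group levels by over 1 SD. Without centring by experiment, 0 of 9 members kept both of their most similar genes. Depth was lowest for Tet3 and Dppa3, with 1254 and 2079 counts in all libraries.

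Same-numbered samples of set 1 and of KH2 cells did not deviate together. The correlations of their deviations were 0.05, -0.24 and -0.13 between groups in set 1 and 0.07 in KH2 cells. In untreated set 2 those of same-numbered libraries were -0.33 to -0.10 between KO1 and KO2, -0.28 to -0.21 between KO1 and WT, and 0.22 to 0.33 between KO2 and WT. Libraries 1, 2 and 3 were in library groups A, B and A for KO2 and WT, and in B, A and B for KO1. Not every pair was above 0.1 in set 1, set 2 or KH2 cells, so the numbers were not taken to pair the samples.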
